A study of Homo sapiens with 11 samples.

Results

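The regions described here are the H3K9me3 ChIP-Seq peaks of U2OS cells that share at least 1 bp with an H3K4me3 ChIP-Seq peak of the same cell line. They were selected on the positions in these 2 deposited lists, on chromosomes 1 to 22, and are called double-mark peaks below. Of 56182 autosomal H3K9me3 peaks, 3320 (5.91%) met the rule and 52862 did not. Seen from the other mark, 3220 of 24227 autosomal H3K4me3 peaks (13.3%) held at least 1 double-mark peak. The overlap itself is the rule and no test was run on it. All 8 lists of the series together hold 407030 regions.

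H3K4me3, trimethylated lysine 4 of histone H3, is laid down by the SET1 and MLL methyltransferases and is best known from the promoters of active genes. H3K9me3, trimethylated lysine 9, is laid down by the SUV39H and SETDB1 methyltransferases, is bound by HP1 proteins and marks heterochromatin and silenced repeats. The study took H3K4me3 to stand for early-replicating and H3K9me3 for late-replicating chromatin, and the regions described here are in both lists. A list made from a culture of many cells cannot tell whether the marks sit on the same nucleosome, the same allele or the same cell.

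The series comprised 11 samples, of which 8 had a list of regions and 3 were inputs with no list. The cells were unsynchronized and untreated, and each condition had 1 library. From wild-type U2OS, a human osteosarcoma line, came the lists for H3K9me3, H3K4me3, CUL4A and replication origins, the last mapped by sequencing nascent strands purified with lambda exonuclease. The CDT2 list was also made in U2OS, but the paper names wild-type cells while the deposited description names a stable line that overexpresses full-length FLAG-RepID, and which is right was not settled here. From HCT116, a human colon carcinoma line, came SKP2 ChIP-Seq of WT and RepID KO cells and the nascent strands of a RepID KO clone. RepID is a DCAF, a substrate receptor of CRL4 ubiquitin ligases, that binds replication origins. CUL4A is the scaffold of CRL4, CDT2 is another DCAF, known for the destruction of CDT1 and SET8 during S phase, and SKP2 is a substrate receptor of the SCF ligase. The HCT116 lists describe another cell line than the histone lists, and a histone list of HCT116 was not used here.

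With 1 library per condition there is no spread between replicates, so no p-value is given. A share of peaks carries a Wilson 95% interval and a difference of shares a Newcombe 95% interval, both of which cover counting error only and treat neighbouring peaks as independent. Each difference therefore compares lists of regions and not conditions. The depth of the libraries is unknown. A peak is said to meet a list when it shares at least 1 bp with a region of it, which is more likely for wide peaks and for lists of wide regions.

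By median width, double-mark peaks were shorter than the H3K4me3 peaks that held them and wider than the other H3K9me3 peaks. The median was 363 bp (interquartile range 260 to 639 bp) for double-mark peaks and 319 bp for the other H3K9me3 peaks. The H3K4me3 peaks that held double-mark peaks had a median width of 1775 bp. The shared stretch ranged from 5 bp to 2741 bp with a median of 286 bp, and 74.3% of all bases in double-mark peaks lay in H3K4me3. At least 50% of the peak was covered in 2823 cases (85.0%). Most H3K4me3 peaks in the set, 3121 in number, held 1 double-mark peak, while 94 held 2 and 5 held 3.

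The median fold enrichment over the control, as the authors' caller gave it, was close to that of the other peaks of each mark. The upper part of the H3K9me3 values was higher in double-mark peaks. The median fold enrichment of H3K9me3 was 4.26 in double-mark peaks and 4.02 in the other H3K9me3 peaks, and the median −log10 q was 3.27 against 2.52. The upper quartile was 5.22 against 4.67 for fold and 5.61 against 3.71 for −log10 q. A −log10 q of at least 2 was reached by 78.4% of double-mark peaks and 66.0% of the others. The median H3K4me3 fold was 6.82 in the peaks that held a double-mark peak and 7.13 in those that did not. The highest H3K9me3 fold among the double-mark peaks was 38.3, below the 61.7 reached elsewhere in the list. These values come from the lists that chose the regions and are given as a description.

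At the limit of the rule, the 2 shortest overlaps were 5 bp at chr7:73872691-73872890 and 6 bp at chr10:103332441-103332994 (build hg19, positions counted from 1, as for all coordinates here). Just outside it, the H3K9me3 peak at chr12:3281275-3283177 lay 3 bp from an H3K4me3 peak and that at chr5:141699940-141700627 lay 8 bp away. All 4 met an origin in U2OS.

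The overlaps took 3 forms, a grouping made after the lists had been seen. In the most frequent, 1871 regions (56.4%), a short H3K9me3 peak with a median width of 306 bp lay wholly inside an H3K4me3 peak with a median width of 3500 bp and a median H3K4me3 fold of 11.4. In 525 regions (15.8%) the reverse held, with an H3K4me3 peak of 266 bp inside an H3K9me3 peak of 606 bp (medians), and there the H3K9me3 fold was higher (median 5.75) and the H3K4me3 fold lower (4.05). The remaining 924 regions (27.8%) overlapped in part. By its medians the first form is thus a small H3K9me3 peak within a broad, strong H3K4me3 domain. The second is, by its medians, a small, weak H3K4me3 peak within a stronger H3K9me3 peak. The enclosing peak is wider by definition, and single regions depart from the medians. At chr7:99094001-99094301, of the inside form, the H3K4me3 peak was 368 bp wide with a fold of 6.87.

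**Figure D1:**
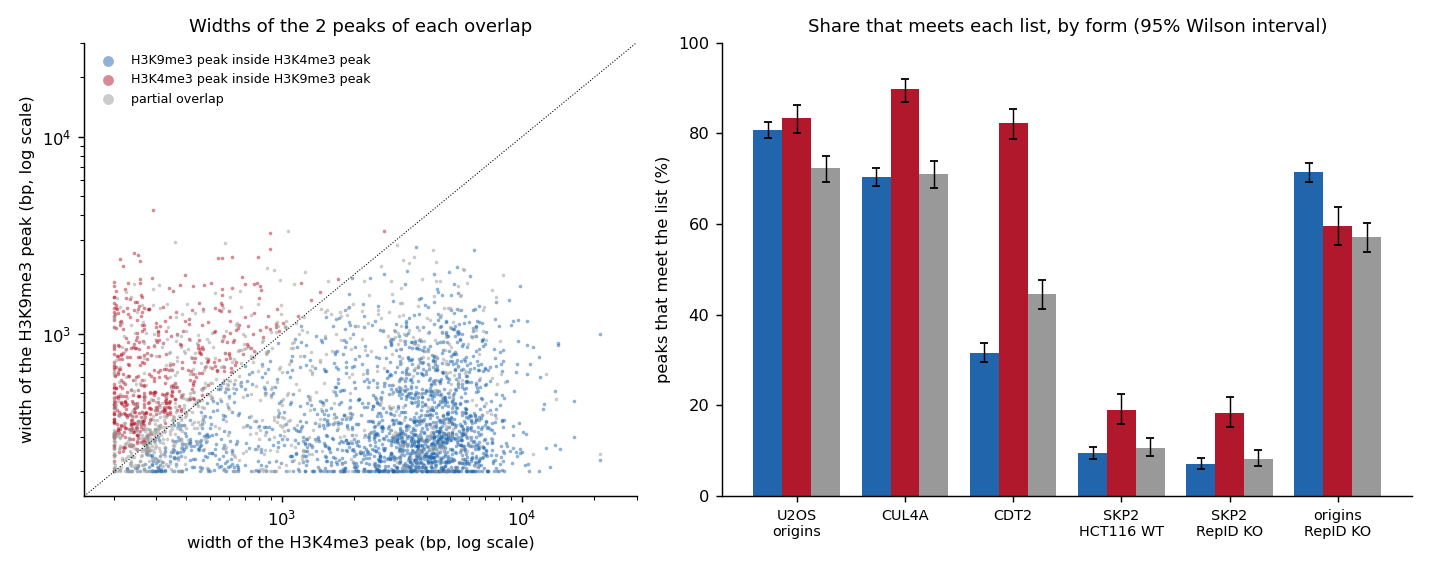
Left, width of the H3K9me3 peak against width of its H3K4me3 peak, in bp on log axes, with 1 point for each of the 3320 double-mark peaks, coloured by form of overlap, and a dotted line of equal width. Right, percentage of the peaks of each form that met each of 6 other lists, with 95% Wilson intervals; CDT2 was met by 31.6% of H3K9me3 peaks inside H3K4me3 and by 82.3% of those that enclosed an H3K4me3 peak.

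Replication origins of U2OS were met by 2617 double-mark peaks, or 78.8% (77.4 to 80.2%), where 47.4% of all H3K9me3 peaks met an origin. Against the other H3K9me3 peaks, at 45.4%, the share was 33.4 percentage points higher (32.0 to 34.9). When only other H3K9me3 peaks within 5 kb of H3K4me3 were kept for comparison, an alternative added after seeing the data, the difference was 18.4 points. Origins that met a double-mark peak had a median width of 3800 bp. The median was 3000 bp for origins that met other H3K9me3 peaks only and 2200 bp for origins without H3K9me3. A wide origin is more likely to meet any peak, so the choice by overlap itself favours wide origins.

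CUL4A, the CRL4 scaffold, was met by 2445 double-mark peaks, or 73.6% (72.1 to 75.1%), against a background of 35.8% over all H3K9me3 peaks. The other H3K9me3 peaks reached 33.4%, so the difference was 40.2 points (38.6 to 41.7), and it was 26.4 points against other peaks within 5 kb of H3K4me3. The CUL4A regions at double-mark peaks numbered 2358, which is 4.23% of that list, and they had a median score of 132. CUL4A regions that met other H3K9me3 peaks only had a median score of 73, and those without H3K9me3 a median of 56. In the same order the median widths were 2800, 2200 and 1800 bp, and whether the scores follow width was not tested. The score is the authors', its scale is not stated, and it is compared only within the list.

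CDT2 was met by 1435 double-mark peaks, or 43.2% (41.5 to 44.9%), where the background over all H3K9me3 peaks was 20.8%. The other H3K9me3 peaks reached 19.4%, a difference of 23.8 points (22.1 to 25.5). Among peaks under 300 bp the difference was 14.0 points, with 26.7% against 12.7%, and among peaks of 600 bp or more it was 29.0 points, with 54.2% against 25.3%. With only CDT2 peaks scoring at least 50, an alternative added with the scores in view, the difference was 14.8 points, with 18.5% against 3.66%. The 1498 CDT2 peaks that met a double-mark peak were 5.41% of the CDT2 list and had a median score of 41.7. The median score was 29.6 for CDT2 peaks that met other H3K9me3 peaks only and 25.2 for CDT2 peaks without H3K9me3. Median widths were 658, 584 and 527 bp in the same order.

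The H3K4me3 side gave a wider contrast for CDT2. Of the 3220 H3K4me3 peaks with a double-mark peak, 1451 met CDT2, or 45.1% (43.4 to 46.8%), where 10.4% of all H3K4me3 peaks did so. The 21007 H3K4me3 peaks without H3K9me3 reached 5.04% (4.75 to 5.34%), so the share was 8.95 times higher in the presence of H3K9me3, a difference of 40.0 points (38.3 to 41.8). The difference was 54.1 points for H3K4me3 peaks under 1500 bp and 27.1 points for those of 3000 bp or more. It was 18.3 points when only CDT2 peaks scoring at least 50 were kept, with 19.1% against 0.857%. H3K4me3 peaks under 600 bp with a double-mark peak met CDT2 in 63.6% of cases, and those of the same width without H3K9me3 in 7.29%.

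For the other U2OS lists the H3K4me3 side moved in the same direction. CUL4A was met by 76.3% of H3K4me3 peaks with a double-mark peak and by 31.2% of those without, a difference of 45.1 points (43.5 to 46.7) over a background of 37.2%. Origins were met by 81.6% and 57.9%, a difference of 23.7 points (22.2 to 25.2) over a background of 61.0%. For origins the difference fell to 12.4 points among H3K4me3 peaks of 3000 bp or more.

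**Figure D2:**
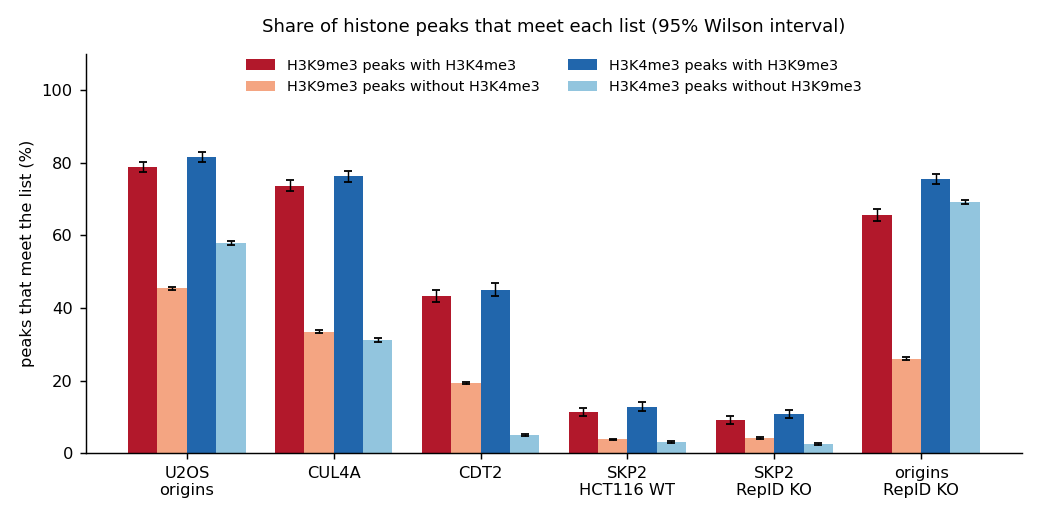
Percentage of peaks that met each of 6 lists for the 4 sets of histone peaks, with 95% Wilson intervals; red and orange are H3K9me3 peaks with and without H3K4me3, dark and light blue are H3K4me3 peaks with and without H3K9me3. In every list the overlapping peaks of a mark stood above the other peaks of that mark, and the smallest ratio was that of H3K4me3 peaks at HCT116 RepID KO origins, 75.5% against 69.1%.

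The 3 forms of overlap differed most for CDT2. Among the 525 H3K9me3 peaks that enclosed an H3K4me3 peak, CDT2 was met by 82.3% (78.8 to 85.3%), among partial overlaps by 44.5% (41.3 to 47.7%), and among H3K9me3 peaks inside H3K4me3 by 31.6% (29.6 to 33.8%). The order was the same within classes of width. Among peaks of 300 bp to under 600 bp the shares were 82.5%, 53.9% and 39.3%, and among those of 600 bp or more they were 84.5%, 46.7% and 37.0%. CUL4A was met by 89.7% of the enclosing form and by 71.0% and 70.4% of the other two. For U2OS origins the enclosing form (83.4%) and the inside form (80.8%) had overlapping intervals, with partial overlaps at 72.3%. Origins of HCT116 RepID KO cells ran the other way, with 71.5% for the inside form against 59.6% for the enclosing form and 57.0% for partial overlaps. The forms also differed in H3K9me3 fold, with medians of 5.75 for the enclosing form, 4.22 for partial overlaps and 4.06 for the inside form. Form and H3K9me3 strength were not separated here, and no test was run on these groups.

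Within double-mark regions CDT2 covered a larger share of the H3K9me3 stretch than of the H3K4me3 around it. Over the 3316 double-mark peaks that met a single H3K4me3 peak, CDT2 peaks covered 40.3% of the bases shared by both marks. Of the H3K9me3 bases outside H3K4me3 in these peaks, CDT2 covered 41.8%. Over all 3220 H3K4me3 peaks with a double-mark peak, CDT2 covered 3.91% of the remaining H3K4me3 bases. For the form in which H3K9me3 lies inside H3K4me3, CDT2 covered 30.2% of the H3K9me3 stretch and 3.71% of the H3K4me3 around it. CUL4A covered 76.4% of the shared bases, 80.3% of H3K9me3 alone and 44.8% of H3K4me3 alone. U2OS origins covered 79.8%, 72.9% and 64.8% in that order, and SKP2 of HCT116 WT cells 8.91%, 4.96% and 0.831%. Origins of HCT116 RepID KO cells were the exception, covering 64.0% of shared bases, 51.3% of H3K9me3 alone and 65.7% of H3K4me3 alone.

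Coverage around the centres of double-mark peaks was local for CDT2 and SKP2 and broad for origins and CUL4A. The lists also differ in region width, with medians of 551 bp for CDT2 and 360 and 368 bp for SKP2. Medians were 2000 bp for CUL4A and 2400 bp for U2OS origins. A region of the median width in any of these lists cannot span from a centre to 4 kb away. Reach and region width were not separated here. CDT2 covered 38.9% of the centres and 1.50% of positions 4 to 5 kb away, and SKP2 of HCT116 WT cells covered 8.80% and 0.426%. CUL4A covered 72.7% of the centres and 21.3% of the outer positions, and U2OS origins 77.3% and 38.2%. Around the other H3K9me3 peaks the outer level was lower in every list, at 10.0% for CUL4A and 22.1% for U2OS origins. For RepID KO origins it was 16.2%, against 34.3% around double-mark peaks, and for SKP2 of WT cells 0.240%. Part of the contrast thus extended kilobases beyond the peaks. For CDT2 the outer level was 1.05% around the other H3K9me3 peaks, whose centres were covered in 16.6% of cases. H3K4me3 peaks without H3K9me3 had CDT2 at 2.48% of their centres and 0.942% of the outer positions.

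**Figure D3:**
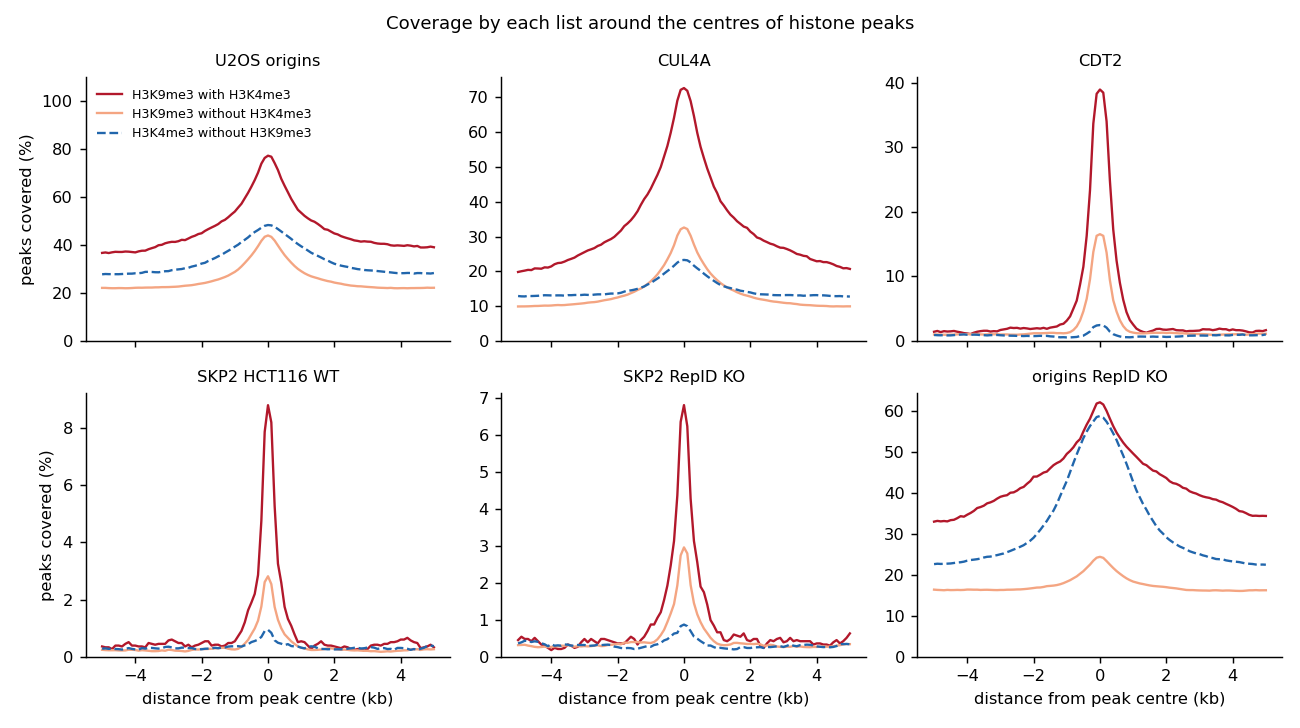
Percentage of peaks covered by each list at a given distance from the peak centre, in steps of 100 bp out to 5 kb, for double-mark peaks (red), other H3K9me3 peaks (orange) and H3K4me3 peaks without H3K9me3 (blue, dashed). The vertical scale differs between panels. The CDT2 and SKP2 curves fall to a low level within about 1 kb of the centre, while origins and CUL4A stay raised around double-mark peaks. Regions of the CDT2 and SKP2 lists are narrower than those of the other lists.

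Distance from H3K4me3 separated the lists in the same way. Among H3K9me3 peaks that did not overlap H3K4me3, the share that met CUL4A fell from 50.7% within 1 kb of H3K4me3 (365 peaks) to 46.9%, 42.6%, 35.2% and 21.2% at 1 to 5 kb, 5 to 20 kb, 20 to 100 kb and 100 kb or more. U2OS origins fell from 65.8% to 32.6% over the same classes, and origins of HCT116 RepID KO cells from 43.8% to 13.9%. CDT2 and both SKP2 lists did not follow this gradient. CDT2 was met by 43.2% of double-mark peaks but by 11.8% (8.86 to 15.5%) of H3K9me3 peaks within 1 kb of H3K4me3. In the farther classes it was met by 21.5%, 23.1%, 20.5% and 15.0%. The peaks nearest to H3K4me3 without touching it thus met CDT2 less often than those at 1 to 5 kb, whose interval was 20.2 to 22.8%. The median width of these 2 classes was 311 and 322 bp. SKP2 of HCT116 WT cells was met by 11.4% of double-mark peaks and, from the nearest class outward, by 3.01%, 3.56%, 4.80%, 4.17% and 2.85%. For SKP2 of RepID KO cells the shares were 9.16%, then 4.11%, 4.59%, 5.14%, 4.14% and 3.77%.

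**Figure D4:**
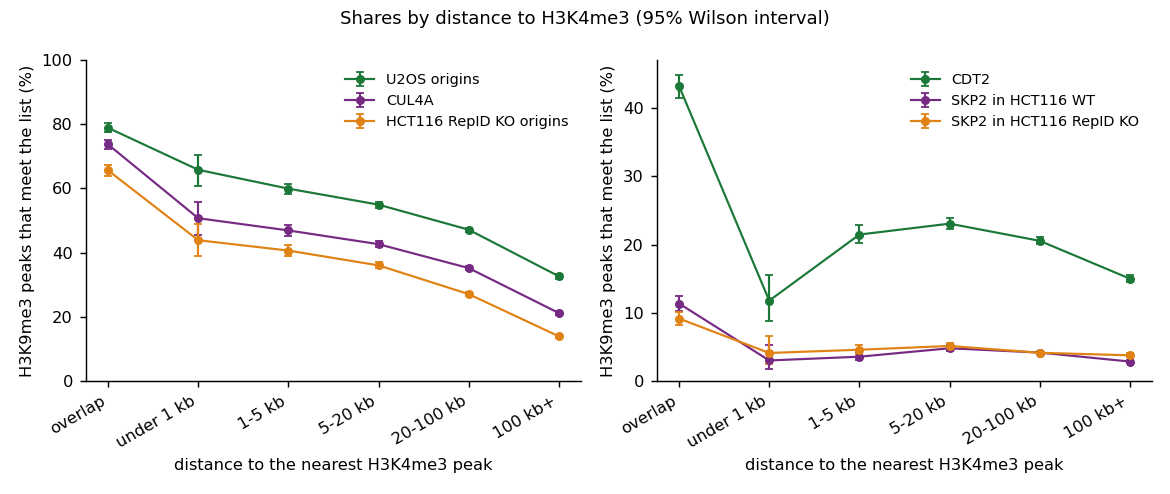
Percentage of H3K9me3 peaks that met each list, by distance to the nearest H3K4me3 peak, with 95% Wilson intervals; the first class holds the double-mark peaks. Left, origins and CUL4A decline step by step; right, CDT2 drops from 43.2% to 11.8% at the edge of H3K4me3 and returns to 21.5% at 1 to 5 kb.

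The share with CDT2 also varied with the strength of H3K9me3. Double-mark peaks were divided into 5 groups of 664 by H3K9me3 fold, and the other H3K9me3 peaks by the same bounds. From the lowest to the highest group CDT2 was met by 27.6%, 27.1%, 37.5%, 45.6% and 78.3% of double-mark peaks. The others gave 16.1%, 13.3%, 16.1%, 23.9% and 43.9%, so the double-mark peaks stood higher in every group. The groups do not match strength and width in full. In the highest group the median −log10 q was 9.17 for double-mark peaks and 6.71 for the others, and the median width 445 and 347 bp. CUL4A varied less, from 67.5% in the second group to 88.3% in the highest. SKP2 of HCT116 WT cells was most frequent at both ends, with 16.7% in the lowest group, 6.63% in the second and 16.4% in the highest. By H3K4me3 fold the order for CDT2 was different, with 57.5% and 55.7% in the lowest 2 groups, whose H3K4me3 peaks had median widths of 362 and 346 bp, and 27.7% and 35.1% in the highest 2, at 4196 and 4184 bp.

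**Figure D5:**
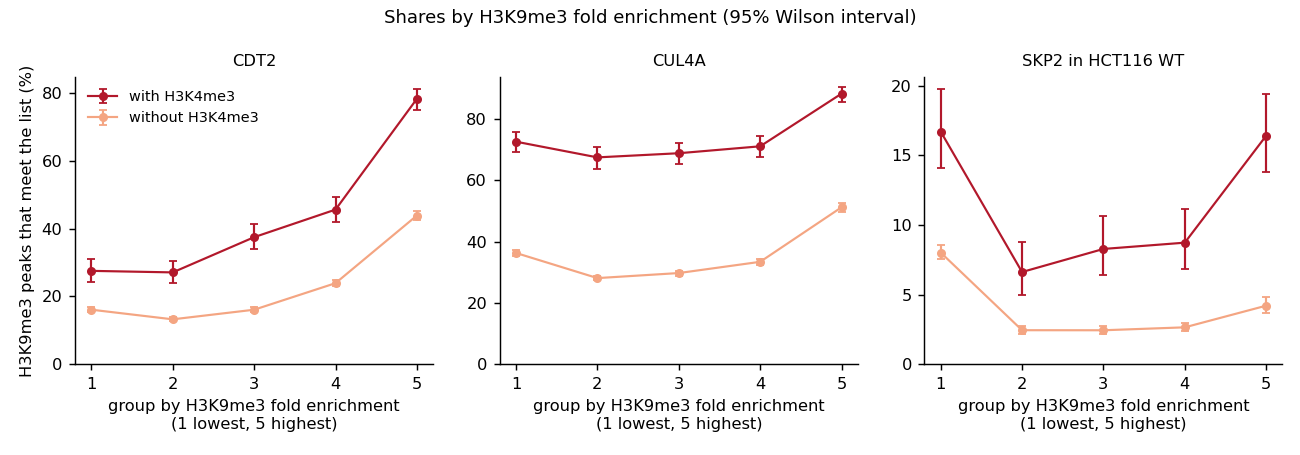
Percentage of H3K9me3 peaks that met CDT2, CUL4A or SKP2 of HCT116 WT cells in 5 groups of H3K9me3 fold enrichment, for peaks with (red) and without (orange) H3K4me3, with 95% Wilson intervals. The red points lie above the orange in all groups, and CDT2 rises to 78.3% in the highest group.

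Many double-mark peaks met several lists at once. In U2OS, 1154 (34.8%) met an origin, CUL4A and CDT2, against 9.87% of the other H3K9me3 peaks, and a further 956 (28.8%) met an origin and CUL4A without CDT2, against 13.9% of the others. None of these 3 was met by 327 double-mark peaks (9.85%) and by 42.0% of the others. CUL4A accompanied CDT2 at 91.2% of the double-mark peaks with CDT2 and was present at 60.3% of those without it. Among the other H3K9me3 peaks these shares were 67.9% and 25.1%. All 6 lists were met by 45 double-mark peaks (1.36%) and 130 others (0.246%), and none of the 6 by 221 (6.66%) and 20252 (38.3%).

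SKP2 peaks of HCT116 cells met few double-mark peaks, but more than other H3K9me3 peaks. In WT cells 377 met SKP2, or 11.4% (10.3 to 12.5%), over a background of 4.30%, and the difference from the other H3K9me3 peaks, at 3.86%, was 7.50 points (6.45 to 8.64). In RepID KO cells 304 did so, or 9.16% (8.22 to 10.2%), over a background of 4.55%, with the others at 4.26% and a difference of 4.90 points (3.95 to 5.94). Among peaks under 300 bp the differences were 4.49 and 2.01 points, and among those of 600 bp or more 9.67 and 9.04 points. SKP2 was met in both lists by 94 double-mark peaks (2.83%), which is 24.9% of those with SKP2 in WT and 30.9% of those with SKP2 in RepID KO cells. Among the other H3K9me3 peaks 443 (0.838%) met both lists, which is 21.7% and 19.7% of those with SKP2. Each SKP2 list comes from 1 library, so WT and RepID KO were not compared further.

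CDT2 was more frequent at double-mark peaks that also met SKP2. Of 587 double-mark peaks with SKP2 in either list, 68.0% (64.1 to 71.6%) met CDT2, against 37.9% (36.1 to 39.7%) of those without SKP2. The other H3K9me3 peaks gave 45.4% and 17.4%. CDT2 was met by 26.7% of double-mark peaks under 300 bp and 54.2% of those of 600 bp or more. For SKP2 of WT cells these shares were 6.80% and 15.6%. The contrast by SKP2 was not matched for width or H3K9me3 fold. On the H3K4me3 side SKP2 of WT cells was met by 12.8% with and 3.07% without a double-mark peak (background 4.37%), and SKP2 of RepID KO cells by 10.8% and 2.57% (background 3.67%). These differences of 9.76 and 8.24 points were 5.08 and 4.22 points when the centre of the H3K4me3 peak had to lie in a SKP2 peak. The SKP2 peaks at double-mark peaks had a median score of 926 in WT cells and 823 in RepID KO cells, against 570 and 471 for SKP2 peaks that met other H3K9me3 peaks only and 352 and 340 for SKP2 peaks without H3K9me3.

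Origins of the HCT116 RepID KO clone were met by 2177 double-mark peaks, or 65.6% (63.9 to 67.2%), over a background of 28.3%. The other H3K9me3 peaks reached 26.0%, a difference of 39.6 points (37.9 to 41.2), which was 24.7 points against other H3K9me3 peaks within 5 kb of H3K4me3. On the H3K4me3 side 75.5% and 69.1% met such an origin, over a background of 70.0%, and the difference was 6.42 points (4.78 to 8.0), or 2.72 points when only H3K4me3 peaks within 5 kb of H3K9me3 were kept for comparison.

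Double-mark peaks were densest on chromosome 19. That chromosome had 315, which is 19.5% (17.7 to 21.5%) of its H3K9me3 peaks, followed by chromosome 17 with 10.1% and chromosome 22 with 9.52%, while chromosome 4 had the lowest share, 3.47%. As a share of H3K4me3 peaks the range was narrower, from 8.08% on chromosome 21 to 18.7% on chromosome 19. H3K4me3 covered 6.29% of chromosome 19 and 1.01% of chromosome 4, and the share of H3K9me3 peaks with H3K4me3 ranked with this cover over the 22 chromosomes (Spearman's rho 0.93, a description of quantities that share a list). Double-mark peaks met U2OS origins, CUL4A, CDT2, SKP2 in RepID KO cells and RepID KO origins more often than other H3K9me3 peaks on 22 of 22 chromosomes, and SKP2 in WT cells on 21 of 22. For CDT2 the share of double-mark peaks ranged from 31.0% on chromosome 14 to 50.2% on chromosome 2, and that of other peaks from 8.04% on chromosome 13 to 28.6% on chromosome 20. In bins of 1 Mb, 1371 held a double-mark peak and 22 held at least 10, of which 9 were on chromosome 19. The densest bin, at 51 to 52 Mb of chromosome 19, held 19.

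Single regions show the forms. The strongest H3K9me3 fold among double-mark peaks, 38.3, was at chr12:108328920-108329581. Its H3K4me3 peak of 322 bp (fold 4.81) lay inside the H3K9me3 peak of 662 bp, and the region met an origin of 1000 bp, a CUL4A region of 600 bp, a CDT2 peak of 656 bp and a RepID KO origin of 600 bp, but no SKP2 peak. The second, chr2:133391152-133391872, had an H3K9me3 fold of 27.3 and an H3K4me3 fold of 10.3 over an enclosed peak of 523 bp, and it met all 6 lists, with a CDT2 score of 611 and SKP2 scores of 2391 in WT and 2687 in RepID KO cells. The third, chr1:46890391-46891322, had an H3K9me3 fold of 27.2 around an H3K4me3 peak of 450 bp with a fold of 7.69. All 3 regions had the enclosing form.

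The highest H3K4me3 folds came from the inside form. At chr19:56090972-56091606 an H3K9me3 peak of 635 bp (fold 7.67) lay within an H3K4me3 peak of 4669 bp with a fold of 59.5, and met all lists but SKP2 of RepID KO cells. At chr13:19691384-19692113 an H3K9me3 peak with a fold of 4.11 lay within 8300 bp of H3K4me3 with a fold of 57.1, and met all lists but SKP2 of WT cells. At chr1:54412473-54413118 the folds were 10.2 for H3K9me3 and 54.3 for H3K4me3, and SKP2 of RepID KO cells was again the list not met. The CDT2 peaks in these regions were 872, 493 and 798 bp wide, within H3K4me3 peaks of 4669, 8300 and 6854 bp.

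The 3 longest overlaps differed in the lists they met. The longest, 2741 bp at chr1:161144496-161147236, lay wholly within H3K4me3 (fold 24.9), and met CUL4A and both origin lists but neither CDT2 nor SKP2. The second, 2670 bp at chr19:49942456-49945125, met 4 CDT2 peaks, SKP2 of WT cells, CUL4A and both origin lists. The third, at chr13:87410075-87413404, shared 2652 bp with an H3K4me3 peak inside it and met CUL4A and CDT2 but no origin in either cell line.

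U2OS origins, CUL4A, CDT2 and both SKP2 lists were met together by 49 double-mark peaks, or 1.48% (1.12 to 1.95%), and by 143 other H3K9me3 peaks, or 0.271% (0.230 to 0.319%). After the region on chromosome 2, the strongest of the 49 were chr12:110220112-110220944, with an H3K9me3 fold of 25.4, and chr19:17007851-17008412, with a fold of 16.7. Both enclosed their H3K4me3 peaks, of 454 and 425 bp, and both also met a RepID KO origin. Among the 221 that met none of the 6 lists, the strongest were chr7:99094001-99094301 (H3K9me3 fold 6.94), chr9:107571002-107571533 (6.46) and chr1:222883077-222883357 (6.40), the last inside an H3K4me3 peak of 4667 bp. The H3K4me3 peak at chr1:166941662-166946355 was among the 5 that held 3 double-mark peaks, of 211, 237 and 367 bp. It met an origin in both cell lines but neither CUL4A, CDT2 nor SKP2, and its 3 H3K9me3 folds lay between 3.20 and 3.96. Genes and sequences at these positions were not assigned here, since no hg19 genome or annotation was used.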

How the data were processed

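The authors called the regions before depositing them, on build hg19 with MACS and SICER per the submitters' processing notes. Versions are not given in the sources used here. The deposited H3K4me3 and H3K9me3 lists give fold enrichment over the control as a ratio and significance as −log10 p and −log10 q in the form of MACS2 broad peaks, whereas the methods name SICER. CUL4A regions and origins lie on the SICER grid of 200 bp with a stated gap of 600 bp. The deposited scores of these, the CDT2 and the SKP2 lists are on scales not stated, and were compared within a list only. IgG, or genomic DNA for origins, was the control per the methods, and whether lists shared a control is not stated.

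Overlaps of at least 1 bp were counted on chromosomes 1 to 22 with Python 3.11.15, NumPy 2.4.6, SciPy 1.17.1 and pandas 2.3.3, and drawn with matplotlib 3.10.9. The overlap code was tested on simulated data. Named regions are the 3 leading ones by H3K9me3 fold, H3K4me3 fold, shared bases, 5 lists met and no list met, the H3K4me3 peak with the most members, and those at the limit of the rule. The members, groupings and alternatives were chosen with earlier results of these data known. No gene or sequence was assigned, since the annotation at hand is on another build.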

Additional observations from a re-analysis of the deposited data

How the results depend on the processing

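The 12 differences in share, for 6 lists on the H3K9me3 and the H3K4me3 side, were each recomputed under 11 or 12 alternative settings. In all 134 recomputations the peaks with both marks kept the higher share with an interval apart from 0. The recomputations reuse the same lists and are not independent of each other. The alternatives included at least 50% coverage and a −log10 q of at least 2 in both histone lists. The 50% was of the H3K9me3 peak on its own side, and of the narrower of the 2 peaks on the H3K4me3 side. Others were the peak centre in place of any base, a gap of up to 1 kb, 3 width classes and other sets of chromosomes. The last 2 were other peaks within 5 kb of the other mark and CDT2 scores of at least 50, added after seeing the data. By construction the width classes of under 300 bp, 300 bp to under 600 bp and 600 bp or more held 1220, 1200 and 900 of the double-mark peaks. Across the width classes on the H3K9me3 side, the difference ran from 14.0 to 29.0 points for CDT2 and from 2.01 to 9.04 points for SKP2 in RepID KO cells. No paired analysis was possible because each condition has 1 library. The depth behind the lists is unknown, so an unmet list says only that no region was called there.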

Other observations

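Chromosome X was outside the rule. There, 108 of 1420 H3K9me3 peaks (7.61%, Wilson 95% interval 6.34 to 9.10%) overlapped H3K4me3, with a median width of 342 bp. CDT2 was met by 40.7% (31.9 to 50.2%) of them and by 10.1% (8.62 to 11.9%) of the X-linked H3K9me3 peaks without H3K4me3. CUL4A was met by 59.3% and 20.4%, U2OS origins by 58.3% and 16.7%, SKP2 of HCT116 WT cells by 11.1% and 2.44%, SKP2 of RepID KO cells by 10.2% and 3.51%, and RepID KO origins by 47.2% and 11.6%.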
